A study of Danio rerio with 4 samples.

Results

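The genes described here mark the transmitter and identity of neurons in the zebrafish (Danio rerio) tail at 3 days post fertilization. They were chosen by symbol, as slc17a6a, slc17a6b, gad1b, gad2, slc32a1, slc6a5, chata, slc18a3a, mnx1 and isl1. All 10 are in the table, which holds 19924 features, and each has 1 row. The libraries form 2 groups of 2: double knockouts of cpa1 and cpa5, and siblings from the same pair of cpa1+/- cpa5+/- parents. Each group has the replicate numbers 3 and 4. Siblings carry the genotype label WT, but siblings of such a cross can be heterozygous at either gene. The tissue label is embryo, but by the protocol heads went to genotyping and tails to RNA, so the tissue holds spinal cord together with muscle, skin, fin and whatever trunk was kept. The labels name no mutant alleles and no number of fish per library, and nothing says that libraries of a group came from separate pools. Any p-value below thus sets a difference against the scatter of these 4 libraries, part or all of which may be technical.

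A spinal neuron releases the transmitter that it can make and load into vesicles, so a few enzymes and transporters mark its class. Vesicular glutamate transporters mark excitatory neurons. Glutamate decarboxylases make GABA, the shared inhibitory vesicle transporter loads GABA and glycine, and a neuronal uptake transporter recovers glycine. Choline acetyltransferase and the vesicular acetylcholine transporter mark motor neurons, which drive the muscle, and mnx1 and isl1 are homeodomain transcription factors that set motor neuron identity. Some of these genes are not confined to the spinal cord: isl1 also marks sensory neurons, islet cells and heart progenitors, and mnx1 is also made in the islets. Acetylcholine genes are used by enteric neurons as well.

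The libraries held 24769258 and 35343524 counts in knockout replicates 3 and 4 and 25623442 and 32248878 counts in sibling replicates 3 and 4. The targeted gene cpa5 had 19 and 15 counts in knockout replicates 3 and 4, against 2079 and 397 counts in sibling replicates 3 and 4, and cpa1 was not analysed here. Replicate number set the libraries apart more than genotype: the first principal component held 67.6% of the variance, with both replicate 4 libraries at positive and both replicate 3 libraries at negative scores. edgeR's quasi-likelihood test called 0 of 19924 features between genotypes at an adjusted p below 0.05 and listed 100 (0.502%) at an unadjusted p below 0.05. DESeq2 called 19 (0.0954%) and edgeR with the replicate number as a block called 3 (0.0151%). With that block, which leaves 1 residual degree of freedom, 878 features had an unadjusted p below 0.05. The fit without the block counts the difference between replicate numbers as scatter. Each of the 10 genes had a larger SE in it, from 0.26 against 0.23 for slc17a6a to 0.32 against 0.10 for chata. The intervals given below for each gene come from the fit without the block.

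The tail libraries held RNA of most listed pan-neuronal genes, with no other tissue measured for comparison. Of 29 listed pan-neuronal genes 27 were in the table, with a summed level of 1180 and 1244 CPM in knockout replicates 3 and 4 and 1118 and 1155 CPM in sibling replicates 3 and 4 (CPM, counts scaled to a common library size with TMM factors). Of 27 listed spinal interneuron identity genes 21 were in the table. Of 22 brain and eye markers 8 were in the table, at a summed 25.03 to 33.0 CPM over the libraries, and the photoreceptor opsins on the list were not among them. The forebrain gene foxg1a was at 0.771 and 2 CPM in knockouts and at 0.624 and 2.22 CPM in siblings, and the fore- and midbrain gene otx2b was at 1.23 and 0.985 CPM in knockouts and at 1.36 and 1.4 CPM in siblings (replicates 3 and 4 in each). The listed brain gene emx3 was higher, at 8.33 and 5.62 CPM in knockout replicates 3 and 4 and at 6.16 and 6.5 CPM in sibling replicates 3 and 4. The rest of the measured list is named after its values were seen. Over the libraries emx2 was at 4.64 to 6.95 CPM, dlx2a at 4.25 to 6.87 CPM and neurod6b at 4.21 to 6.26 CPM. Lower were egr2b, at 2.01 to 3.19 CPM, and eomesa, at 1.04 to 1.49 CPM. Some listed brain genes and some listed interneuron identity genes are also made elsewhere. The share of the 10 genes' reads that came from hindbrain, sensory or enteric neurons was not tested.

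None of the 10 genes passed the test between double knockouts and siblings. The same edgeR test did not call the targeted gene cpa5 either (log2 fold change -6.34, unadjusted p = 0.0042). The absence of a call thus does not show the absence of a difference. DESeq2 did call cpa5 (adjusted p = 1.85e-10). For cpa5, edgeR with the replicate block gave an unadjusted p of 2.71e-05 and an adjusted p of 0.0771. The estimate was above 0 in 9 of 10 genes (47.9% of all features) and below 0 in 1 of 10, slc32a1 (52.1%). The estimates ran from -0.09 (slc32a1) to 0.51 (slc17a6a) on the log2 scale with a median of 0.20, beside a median of -0.01 over all 19924 features. By edgeR 0 of the 10 were called after adjustment (0% of all features were called in either direction), and 0 had an unadjusted p below 0.05 (0.502% of all features). DESeq2, limma-voom and edgeR with the replicate block also called 0 of them. Of all features DESeq2 called 0.0954% and edgeR with the block 0.0151%, while limma-voom called 0. In 4 of the 10 both knockout libraries lay above both sibling libraries, which held for 8.72% of all features, and in 0 of the 10 both lay below, which held for 9.01%. By TMM-scaled CPM, 7 of 10 were higher in the knockout within both replicate numbers (24.5% of all features) and 0 of 10 were lower (26.4%). The 10 genes are made by overlapping sets of neurons, so they are not independent of each other. In tissue samples like these, a change in the number of cells of a type and a change in RNA per cell cannot be told apart.

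**Figure D1:**
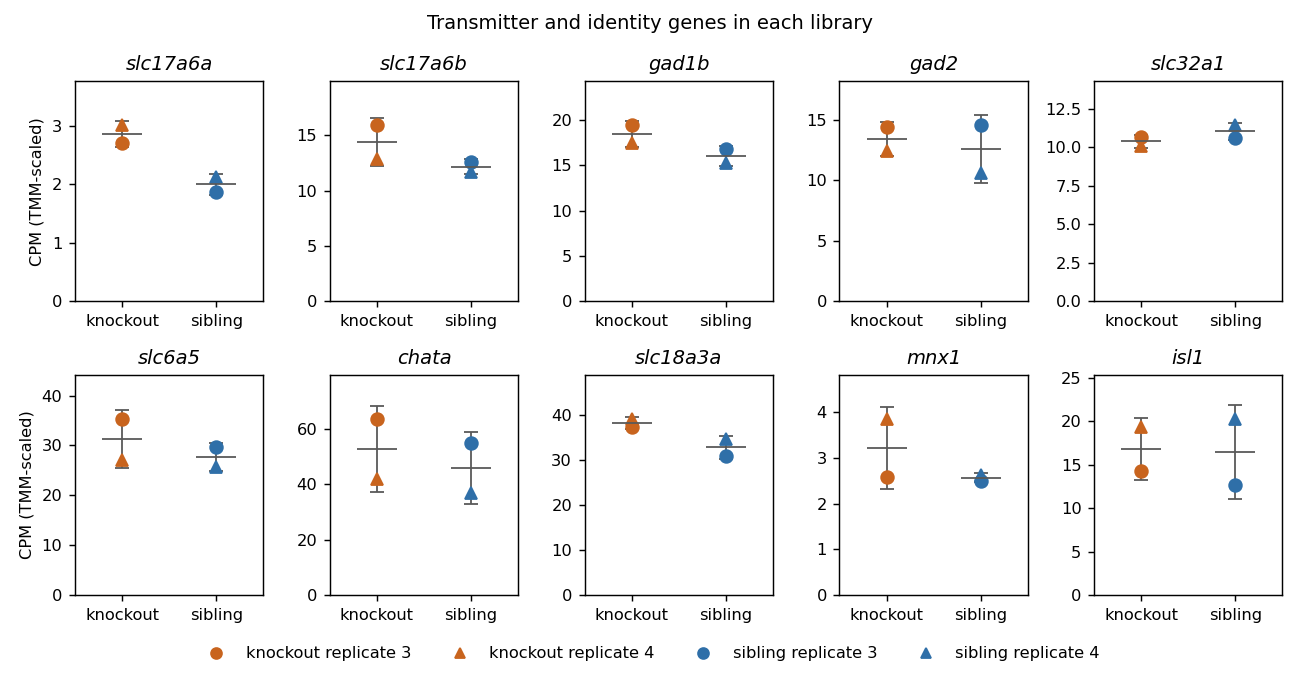
Level of each of the 10 genes in CPM (TMM-scaled, y axes from 0) in double knockout (left) and sibling (right) libraries. Circles are replicate 3, triangles replicate 4, and bars show mean and SD over 2 libraries; the groups are separate for slc17a6a, slc17a6b, gad1b and slc18a3a only.

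Neither vesicular glutamate transporter passed the test. The gene slc17a6a (ENSDARG00000001127), which codes for a vesicular glutamate transporter of the VGLUT2 type, had 70 and 104 counts in knockout replicates 3 and 4 and 48 and 67 counts in sibling replicates 3 and 4. This is 2.7 and 3.01 CPM in knockouts, against 1.87 and 2.13 CPM in siblings, and the groups did not overlap. The means were 2.86 ± 0.22 CPM in knockouts and 2 ± 0.18 CPM in siblings (SD, n = 2 each), and the log2 fold change was 0.51 ± 0.26 (SE), with a 95% interval from -0.19 to 1.22. The adjusted p of edgeR's quasi-likelihood test was 1 and the unadjusted p was 0.114. On the log2(FPKM + 1) scale, which understates changes of low genes, the difference was 0.24. Counting error alone is wide here: the Wilson 95% interval is 2.14 to 3.41 CPM in knockout replicate 3 and 1.67 to 2.7 CPM in sibling replicate 4, so these overlap. Intervals of knockout and sibling libraries of the same number also overlap. Those of knockout replicate 4 (2.49 to 3.65 CPM) and sibling replicate 3 (1.41 to 2.48 CPM) do not. Wilson intervals cover counting error only.

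Its paralog slc17a6b (ENSDARG00000041150) was read more deeply, at 413 and 444 counts in knockout replicates 3 and 4 and at 324 and 368 in sibling replicates 3 and 4. It stood at 15.9 and 12.9 CPM in knockouts and at 12.6 and 11.7 CPM in siblings. The groups did not overlap, although knockout replicate 4 lay only just above sibling replicate 3. The log2 fold change was 0.24 ± 0.20 with a 95% interval from -0.30 to 0.79, and between libraries of the same number it was 0.33 for replicate 3 and 0.14 for replicate 4. It was 0.08 without knockout replicate 3 and 0.40 without knockout replicate 4. On the deposited FPKM scale, which divides by length, slc17a6b exceeded slc17a6a in every library, by 2.72 and 1.96 times in knockout replicates 3 and 4 and by 3.16 and 2.53 times in sibling replicates 3 and 4. Reads that match both paralogs could have been split between them, and the counting rule is not known.

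The GABA-synthesizing enzymes were not called between the groups. The gene gad1b (ENSDARG00000027419), a glutamate decarboxylase of the GAD67 type, was at 19.4 and 17.4 CPM in knockout replicates 3 and 4 and at 16.8 and 15.3 CPM in sibling replicates 3 and 4. Its groups did not overlap, and the log2 fold change was 0.20 ± 0.18 (95% interval -0.28 to 0.68). By TMM-scaled CPM the difference had nearly the same size within both replicate numbers, at 0.21 for replicate 3 and 0.19 for replicate 4. With total counts it was 0.27 and 0.19, and from FPKM 0.27 and 0.14. Without knockout replicate 3 the fit gave 0.12 and without knockout replicate 4 it gave 0.29.

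The other decarboxylase gene gad2 (ENSDARG00000015537), of the GAD65 type, was at 14.4 and 12.4 CPM in knockouts and at 14.6 and 10.6 CPM in siblings (replicates 3 and 4 in each). The groups overlapped, and sibling replicate 3 was the highest library by CPM. Within replicate 3 the log2 difference was -0.02 from CPM, 0.05 with total counts and 0.08 from FPKM, so its direction depended on the scale. For gad2 the fitted log2 fold change of 0.09 ± 0.24 (95% interval -0.56 to 0.74) changed sign when a library was left out. It became -0.11 without sibling replicate 4 and -0.02 without knockout replicate 3. Per length gad1b was the higher of the pair in every library, with an FPKM ratio to gad2 of 2.45 and 2.39 in knockouts and 2.14 and 2.46 in siblings.

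The vesicle transporter shared by GABA and glycine neurons, slc32a1 (ENSDARG00000059775), was at 10.7 and 10.1 CPM in knockout replicates 3 and 4 and at 10.6 and 11.5 CPM in sibling replicates 3 and 4. The groups overlapped, and sibling replicate 4 was the highest library by CPM. By FPKM knockout replicate 3 was the highest, at 2.66 FPKM against 2.57 FPKM in sibling replicate 4. Within replicates 3 and 4 the log2 difference was 0.005 and -0.18 by CPM, and 0.095 and -0.18 by FPKM. The log2 fold change was -0.09 ± 0.18 with a 95% interval from -0.57 to 0.39, and it was -0.14 without sibling replicate 3 and -0.03 without sibling replicate 4. In percent that interval runs from -32.5% to 31.1%, so by this fit the data are compatible with changes in either direction within it. With the replicate block the SE was 0.13.

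The glycine uptake transporter slc6a5 (ENSDARG00000067964, the neuronal GLYT2 type) was at 35.3 and 27.2 CPM in knockout replicates 3 and 4 and at 29.7 and 25.6 CPM in sibling replicates 3 and 4. The groups overlapped because knockout replicate 4 lay below sibling replicate 3. The log2 fold change of 0.18 ± 0.21 (95% interval -0.38 to 0.73) became -0.03 without knockout replicate 3. On the FPKM scale the direction within replicate 4 was the other way: 3.43 FPKM in knockout replicate 4 against 3.89 FPKM in sibling replicate 4 (log2 difference -0.18, against 0.08 from CPM). An implied length was worked out from counts, FPKM and the library's total of deposited counts. It is the length used only if the authors' FPKM rests on those totals, which is not known. For slc6a5 it was 7748 bases in knockout replicate 4 and 6442 to 6744 bases in the other libraries, a spread of 1.2 times. In the other 9 genes this spread was 1.03 to 1.1 times. The direction within replicate 4 thus depends on the scale for slc6a5.

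**Figure D2:**
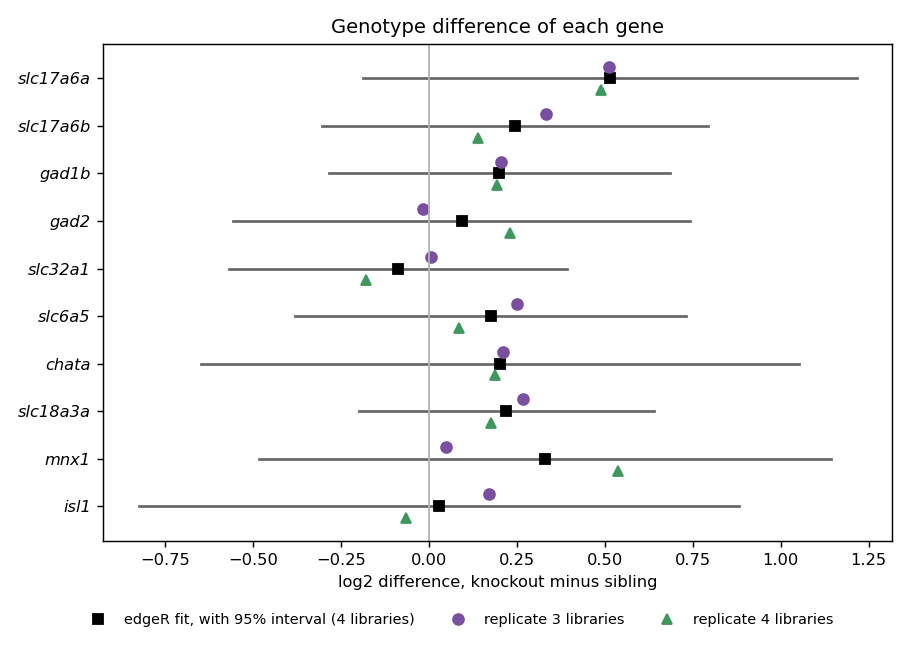
Log2 difference of knockout minus sibling for each gene. Black squares with lines are the edgeR estimates with their 95% intervals over 4 libraries, from the fit without a replicate term. Circles are the difference within replicate number 3 and triangles that within number 4. Every interval crosses 0, and 7 genes have both symbols above 0.

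The acetylcholine genes were the most abundant of the set per length. The choline acetyltransferase gene chata (ENSDARG00000015854) had 1650 and 1444 counts in knockout replicates 3 and 4 and 1410 and 1158 counts in sibling replicates 3 and 4. It was at 63.6 and 41.8 CPM in knockouts, against 55 and 36.7 CPM in siblings. Within each group the libraries lay further apart than the groups did, and the groups overlapped. The means were 52.7 ± 15.4 CPM in knockouts and 45.9 ± 12.9 CPM in siblings (SD, n = 2 each), with a log2 fold change of 0.20 ± 0.32 (95% interval -0.65 to 1.05). Between libraries of the same number the difference by CPM was 0.21 for replicate 3 and 0.19 for replicate 4, and from FPKM it was 0.38 and 0.18. The fit changed sign without sibling replicate 4 (-0.05) or knockout replicate 3 (-0.13). Without 1 library, the groups no longer hold the same replicate numbers.

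The vesicular acetylcholine transporter gene slc18a3a (ENSDARG00000006356) was at 37.3 and 39.1 CPM in knockout replicates 3 and 4 and at 31.0 and 34.6 CPM in sibling replicates 3 and 4. Its groups did not overlap, with the knockouts above. The log2 fold change was 0.22 ± 0.16 with a 95% interval from -0.20 to 0.64, the narrowest of the 10 in the fit without a replicate term. It was 0.14 without sibling replicate 3 and 0.31 without sibling replicate 4. In the GRCz12tu RefSeq annotation chata and slc18a3a are neighbours, as in the cholinergic locus of other animals, where the transporter gene lies inside or beside the enzyme gene. Reads from shared transcript ends could fall to either, so their split is uncertain. With the counts of both summed as 1 feature, an alternative added after seeing the data, the log2 fold change was 0.21 (adjusted p = 1, edgeR quasi-likelihood test).

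Of the summed counts of this pair, slc18a3a took 48.3% (Wilson 95% interval 46.4 to 50.2) in knockout replicate 4 and 48.5% (46.4 to 50.6) in sibling replicate 4. It took 36.9% (35.1 to 38.8) in knockout replicate 3 and 36.03% (34.0 to 38.1) in sibling replicate 3. The share thus went with the replicate number, with intervals that did not meet between numbers, and differed between genotypes of the same number by less than its counting error. No test of this difference over libraries was made, and with 2 against 2 an exact permutation test cannot give a p below 0.333.

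In the fit without a replicate term, the motor neuron transcription factors had the widest intervals along with chata and slc17a6a. With the replicate block the SE was 0.10 for chata and 0.12 for isl1, against 0.24 for mnx1 and 0.23 for slc17a6a. The gene mnx1 (ENSDARG00000035984) was read at 67 and 133 counts in knockout replicates 3 and 4 and at 64 and 83 counts in sibling replicates 3 and 4, or 2.58 and 3.85 CPM against 2.5 and 2.63 CPM. Only knockout replicate 4 stood apart, and the groups overlapped. The log2 fold change was 0.33 ± 0.30 (95% interval -0.48 to 1.14), and it was 0.02 without knockout replicate 4 and 0.59 without knockout replicate 3.

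The LIM-homeodomain gene isl1 (ENSDARG00000004023) was at 14.3 and 19.4 CPM in knockout replicates 3 and 4 and at 12.7 and 20.3 CPM in sibling replicates 3 and 4. The groups overlapped fully, with siblings holding both the lowest and the highest library. Its log2 fold change of 0.03 ± 0.32 (95% interval -0.82 to 0.88) turned to -0.27 without sibling replicate 3 and to -0.20 without knockout replicate 4. Since isl1 and mnx1 are also islet genes, islet hormones are given here: ins was at 2.58 and 7.62 CPM in knockouts and at 8.27 and 7.65 CPM in siblings, and gcga at 7.4 and 12.8 CPM in knockouts and at 11.6 and 11.01 CPM in siblings (replicates 3 and 4 in each). The whole islet list, with 14 of 16 genes in the table, summed to 71.6 and 89.8 CPM in knockouts and to 83.7 and 86.5 CPM in siblings, and 0 of its genes were called by edgeR. This list also holds genes other than hormones, so its sum does not follow the hormones alone. Its other measured hormone genes are named after their values were seen. In knockout and sibling replicate 3, gcgb was at 3.24 and 5.54 CPM, sst1.1 at 1.85 and 4.21 CPM, and sst2 at 5.86 and 4.05 CPM. In replicate 4 they were at 7.85 and 6.31, 2.9 and 3.3, and 1.36 and 1.52 CPM. The part of islet cells in the isl1 and mnx1 values was not tested.

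By mean FPKM over the 4 libraries the order was slc18a3a (12.01), chata (10.3), isl1 (5.85), slc6a5 (4.33), gad1b (3.92), slc32a1 (2.5), slc17a6b (1.91), gad2 (1.67), mnx1 (1.59) and slc17a6a (0.755). Ranges over libraries did not overlap at 3 steps of this order, between chata and isl1, between gad1b and slc32a1, and between mnx1 and slc17a6a. At the other 6 steps neighbours overlapped: slc18a3a was above chata in 2 of 4 libraries, and gad2 above mnx1 in 2 of 4. The acetylcholine genes thus led the order at 7.59 to 14.1 FPKM, and slc17a6a ended it at 0.575 to 0.902 FPKM in every library.

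**Figure D3:**
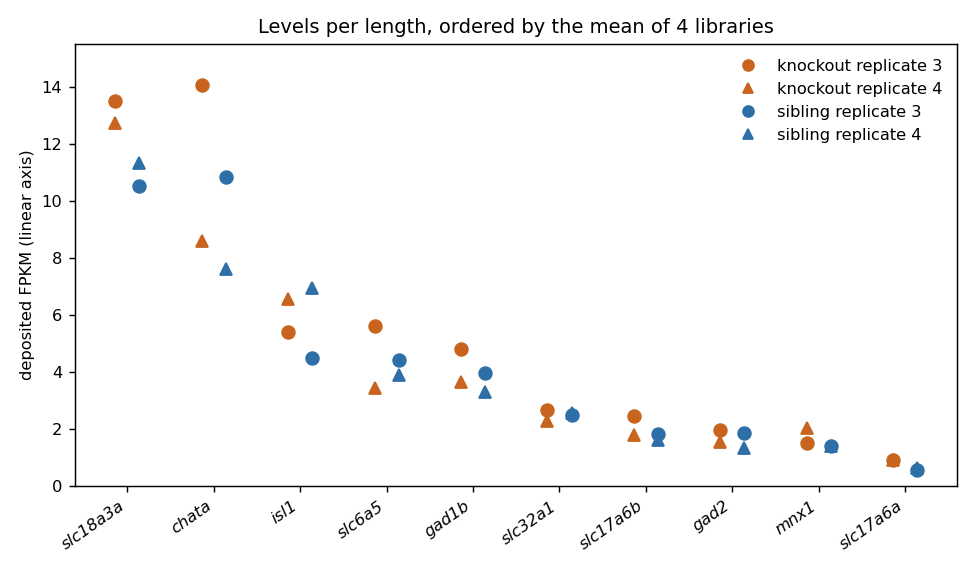
Deposited FPKM of each gene by library (linear axis from 0), ordered by the mean over 4 libraries, with knockouts left of siblings. The acetylcholine genes lie at 7.59 to 14.1 FPKM and slc17a6a at 0.575 to 0.902 FPKM; chata separates by replicate number.

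Of the 10 genes 2 differed between replicate numbers, in opposite directions, in a fit with a term for genotype. The gene chata was lower in replicate 4, at 41.8 CPM in the knockout and 36.7 CPM in the sibling library, against 63.6 and 55 CPM in replicate 3 (log2 difference -0.59 ± 0.10, edgeR adjusted p = 0.025). The gene isl1 was higher in replicate 4, at 19.4 CPM in the knockout and 20.3 CPM in the sibling library, against 14.3 and 12.7 CPM in replicate 3 (0.56 ± 0.12, edgeR adjusted p = 0.0423). DESeq2 did not call isl1 (adjusted p = 0.149). With 1 gene of 10 in either direction the share is near the background: by edgeR 6.99% of all features were called higher in replicate 4, while 8.16% were higher in replicate 3. With total counts in place of TMM factors the calls over all features numbered 1378 higher in replicate 4 and 2532 higher in replicate 3, in place of 1393 and 1625 with TMM factors. The remaining 8 genes had log2 differences between -0.34 (gad2) and 0.33 (mnx1) and were not called.

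The wider lists also held genes called between replicate numbers by edgeR, and glra1, pkd2l1 and foxp1b are named here after their values were seen. Over the 8 neuronal lists 11 of 108 genes were called higher in replicate 4 (6.99% of all features) and 12 of 108 were called lower (8.16%). The list of GABA and glycine transmission had 4 of 15 genes lower and 0 higher. One is glra1, a glycine receptor subunit, with a log2 difference of -0.80 (edgeR adjusted p = 0.0211). Of 3 measured cholinergic genes outside the set 2 were called lower: ache, coding for the enzyme that breaks down acetylcholine, at -0.72 (adjusted p = 0.0194, edgeR), and slc44a1b, of the choline transporter-like family. The high-affinity choline uptake gene slc5a7a was at -0.50 and was not called. Per length ache was at a mean of 52.5 FPKM over the libraries, against 10.3 FPKM for chata. The part of muscle in the ache values was not tested. Among 21 spinal interneuron identity genes 4 were called higher in replicate 4, and pkd2l1, a channel of cerebrospinal fluid-contacting neurons, was called lower. Of 9 motor neuron identity genes 2 were called higher: isl2a at 0.66 (adjusted p = 0.039, edgeR) and foxp1b at 0.67 (adjusted p = 0.0274, edgeR). The remaining neuronal lists had 1 higher and 1 lower of 11 (glutamate), 1 and 2 of 27 (pan-neuronal), 1 and 1 of 14 (somatosensory) and 2 and 1 of 8 (enteric and sympathetic). The lists of other cells had 6 of 8 heart genes and 2 of 12 skeletal muscle genes higher in replicate 4, 5 of 18 progenitor and glial genes and 2 of 9 endplate genes lower, 2 higher and 2 lower of 14 islet genes, and 1 of 8 brain and eye genes higher. What sets the replicate numbers apart was not tested. Libraries of number 4 also held more heart RNA, with myl7 at 20.6 and 19.4 CPM in the knockout and sibling libraries, against 0.0771 and 0.702 CPM in replicate 3.

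**Figure D4:**
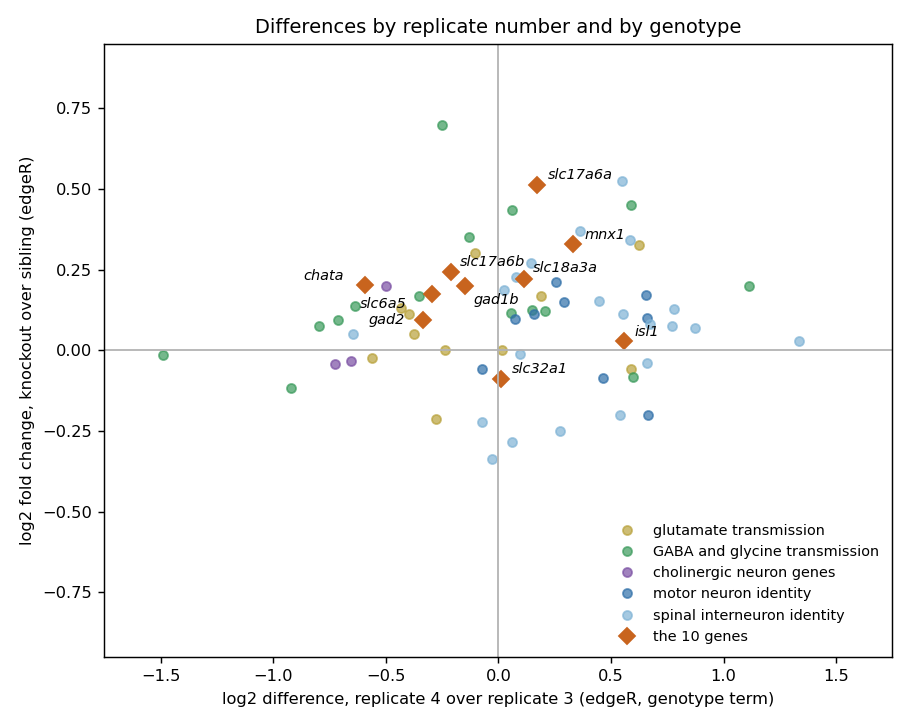
Log2 difference of replicate 4 over replicate 3 (x axis) against log2 fold change of knockout over sibling (y axis), both from edgeR, for the 10 genes (diamonds) and 5 related lists (circles). The 10 genes span -0.59 to 0.56 along x and -0.09 to 0.51 along y.

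Between genotypes, the other genes of these pathways showed 0 calls in either direction in each of the 14 lists, by edgeR with or without the replicate block and by DESeq2. Of all features edgeR called 0.0151% with the block and 0% without it, and DESeq2 called 0.0954%. By an unadjusted p below 0.05 edgeR without the block listed 1 of the 108 measured genes of the 8 neuronal lists, beside 0.502% of all features. It is ntrk3a, coding for a neurotrophin receptor, and is named after its values were seen. It was at 9.06 and 8 CPM in knockout replicates 3 and 4 and at 3.43 and 4.12 CPM in sibling replicates 3 and 4 (log2 fold change 1.17 ± 0.22, unadjusted p = 0.00479, adjusted p = 1). Of the 108 genes 73 had a log2 fold change above 0, which was so for 47.9% of all features, and their median was 0.09. Leaving out 1 library, after which the groups no longer hold the same replicate numbers, turned the direction of the median in 9 of 14 lists. Within both replicate numbers 43 of the 108 were higher in the knockout (24.5% of all features) and 14 were lower (26.4%).

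The remaining glutamate genes had a median log2 fold change of 0.05 (-0.04 to 0.15 with each library left out in turn, as for the ranges after the other lists), with 8 of 11 above 0. The glutaminase genes glsa and glsb, whose enzymes make glutamate from glutamine, were at -0.21 ± 0.27 and -0.02 ± 0.31, and the AMPA receptor gene gria2a was at 0.17 ± 0.21. The GABA and glycine list had a median of 0.13 (0.14 to 0.37), with 12 of 15 above 0. Its decarboxylase gad1a was at 0.14 ± 0.44, and the GABA uptake transporters slc6a1a and slc6a1b were at 0.20 ± 0.64 and 0.12 ± 0.22. The 3 measured cholinergic genes had a median of -0.03 (-0.37 to 0.44), of which slc5a7a was at 0.20 ± 0.30, ache at -0.04 ± 0.38 and slc44a1b at -0.03 ± 0.36.

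On the postsynaptic side of the motor synapse, the median of the muscle endplate list differed by replicate number, at 0.30 within number 3 and 0.01 within number 4. Of 9 measured muscle endplate genes 7 lay above 0 with a median of 0.18 (0.07 to 0.30), while the acetylcholine receptor subunit genes chrna1, chrnd and chrng were at 0.10 ± 0.20, 0.21 ± 0.16 and -0.09 ± 0.54. The skeletal muscle list had a median of 0.04 (-0.05 to 0.12) with 10 of 12 above 0. Its summed level was 88543 and 100678 CPM in knockout replicates 3 and 4 and 85833 and 96136 CPM in sibling replicates 3 and 4.

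Motor neuron identity genes outside the set had a median of 0.10 (-0.17 to 0.27), with 6 of 9 above 0. The isl1 relatives isl2a and isl2b were at 0.17 ± 0.36 and 0.10 ± 0.23, and the mnx1 relative mnx2a was at -0.09 ± 0.34. Of the interneuron identity genes 5 of 21 were higher within both replicate numbers (24.5% of all features) and 5 of 21 were lower (26.4%), so both shares are near the background. The median of this list was 0.08 (-0.24 to 0.39). Both identity medians were lowest without sibling replicate 3 and highest without sibling replicate 4. Among them evx2, of V0 interneurons, was at 0.03 ± 0.69, and en1b, of inhibitory V1 interneurons, at 0.23 ± 0.23. The medians of both identity lists differed by number, at 0.31 and -0.10 for motor neuron and 0.24 and -0.10 for interneuron genes in replicates 3 and 4.

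Pan-neuronal genes were above 0 in 21 of 27. Their median of 0.09 was 0.008 without knockout replicate 4, 0.05 without sibling replicate 3 and up to 0.12 without the others. Within both replicate numbers 13 of 27 were higher in knockouts (24.5% of all features) and 1 was lower (26.4%). The RNA-binding protein genes elavl3 and elavl4 were at 0.15 ± 0.18 and 0.08 ± 0.28, and the synaptic vesicle fusion gene snap25a was at 0.25 ± 0.25. The list's median was 0.01 within number 3 and 0.11 within number 4. For the 10 transmitter and identity genes it was 0.21 and 0.18.

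**Figure D5:**
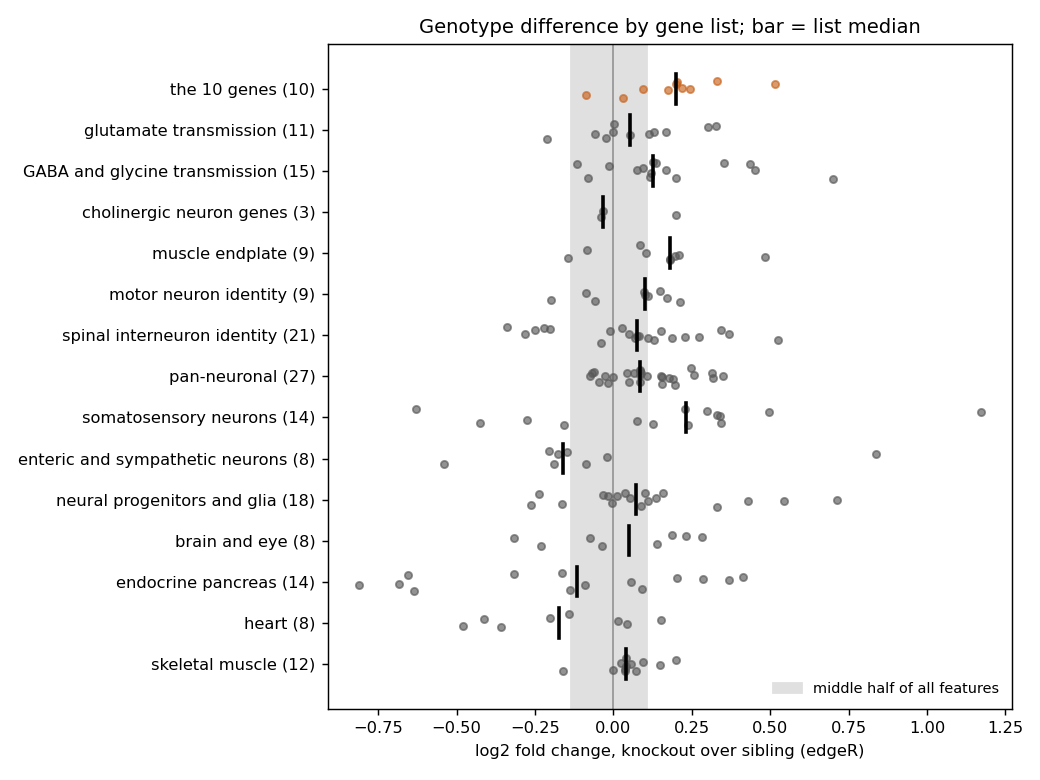
Log2 fold change of knockout over sibling (edgeR) for each measured gene of the 10-gene set and of 14 lists (number measured in brackets). Bars are list medians and the grey band spans the 25th to 75th percentile of all 19924 features; the 10 genes have a median of 0.20, and 0 genes in any list were called.

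Somatosensory neuron genes had a median of 0.23 (0.12 to 0.16) with 10 of 14 above 0. The ATP receptor gene p2rx3a was at -0.63 ± 0.70 and prdm14 at 0.33 ± 0.47. Enteric and sympathetic genes had a median of -0.16 (-0.42 to 0.05, above 0 without knockout replicate 3) with 1 of 8 above 0. Their regulators phox2bb and phox2a were at -0.19 ± 0.36 and -0.18 ± 0.21, and th, coding for tyrosine hydroxylase, was at 0.84 ± 1.04. Progenitor and glial genes had a median of 0.07 (-0.03 to 0.19) with 12 of 18 above 0, and gfap, mbpa and olig1 were at 0.01 ± 0.18, -0.24 ± 0.57 and 0.54 ± 0.39. The brain and eye list had a median of 0.05 (-0.13 to 0.30) with 4 of 8 above 0, and foxg1a, otx2b and emx3 were at -0.04 ± 0.80, -0.32 ± 0.35 and 0.14 ± 0.27.

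Of the other tissues, the islet list had a median of -0.12 (-0.35 to -0.02) with 6 of 14 above 0, including ins at -0.63 ± 0.55, gcga at -0.16 ± 0.32 and pdx1 at -0.81 ± 0.38. The heart list had a median of -0.17 with 3 of 8 above 0, which was -2.20 without knockout replicate 4 and 1.84 without sibling replicate 4. The heart genes myl7, nppa and myh6 were at 0.04 ± 2.18, 0.01 ± 2.06 and -0.20 ± 1.18, and the summed level of the list was 16.04 and 109 CPM in knockout replicates 3 and 4 and 25.7 and 105 CPM in sibling replicates 3 and 4. The muscle genes ckma, actc1b and mylpfa were at 0.07 ± 0.21, 0.04 ± 0.16 and 0.04 ± 0.15.

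The profile of the set was nearly flat, at 0.12 and 0.07 in knockout replicates 3 and 4 and at -0.08 and -0.11 in sibling replicates 3 and 4 (mean over the 10 genes of log2 CPM centred per gene). Among 15512 named Ensembl genes with a mean of at least 2 CPM, those with the smallest Euclidean distance to it over the 4 libraries were LO017951.1, dnah1, plekhg6, rasd4 and rfwd3, at distances of 0.01 to 0.02. The 10 genes themselves lay at 0.108 (gad1b) to 0.623 (isl1) from their own mean profile. Of the other genes 4567 were nearer to it than the median of the 10.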

How the data were processed

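mRNA-seq of 4 zebrafish tail libraries was analysed from 1 deposited table. The submitters' processing notes name HISAT2 2.2.1, DESeq2 1.26.0 and the GRCz11 build. No source used here names the read counter, the annotation release or the use of strand. The deposited count columns hold raw read counts per feature, and the deposited FPKM columns were computed by the authors. Their own comparison is deposited as log2 fold changes with p-values, taken here as the authors gave them. In the authors' deposited table each of the 10 genes has an adjusted p of 1. The smallest of the features' highest counts was 26, so the table lacks features of lower count.

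Counts were tested with edgeR 4.0.16 (quasi-likelihood, TMM, filterByExpr, no covariate; R 4.3.3), with Benjamini-Hochberg adjustment over all 19924 features, a threshold of 0.05 and 2 libraries a group. The filter removed 0 features. SE is the log2 fold change divided by the root of the F statistic, and 95% intervals use the fit's degrees of freedom. Differences within a replicate number use log2 CPM with a prior count of 2. A fit with terms for genotype and replicate number gave the replicate difference. Libraries of a group were not copies (chi-square per degree of freedom 77.7 between knockouts and 90.0 between siblings). The scripts were tested on simulated data.

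Alternatives were RLE factors, total counts, a mean CPM of at least 1 or no filter, DESeq2 1.42.0, limma 3.58.1 (voom, and on log2(FPKM + 1)), a replicate block and each library left out. Members, lists and alternatives were chosen with earlier results of these data known. Named genes were the 10 members, the first 3 listed genes of each list in the table, and the 5 nearest profiles, and any other gene is named as a later choice. Some genes that this rule names are not reported here.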

Additional observations from a re-analysis of the deposited data

How the results depend on the processing

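Between genotypes the count of called features was 0 by edgeR, 19 by DESeq2 and 3 with the replicate block, and 0 with each library left out. Of the 10 genes 0 were called under any alternative run. Their median log2 fold change of 0.20 was 0.24 with total counts, which moved the median of all features from -0.01 to 0.02, and 0.10 to 0.29 with each library left out. Leaving out 1 library turned the direction in 4 genes, whose ranges were -0.13 to 0.52 (chata), -0.11 to 0.34 (gad2), -0.026 to 0.36 (slc6a5) and -0.27 to 0.41 (isl1). The other 6 genes kept theirs, and all 10 kept it under the alternatives that keep every library. Of the 14 list medians 9 turned and 5 kept their direction when 1 library was left out. The fits without 1 library had no replicate term, so a difference between replicate numbers enters their estimates. Between replicate numbers slc32a1 was at -0.054 with total counts, against 0.01, and was not called. Libraries of the same number deviated from their group means together (correlation across features 0.63), but 2 pairs and a shared number do not show that the libraries are pairs. With the replicate block the adjusted p of the 10 genes was 0.977 to 0.987, and the unadjusted p of slc18a3a and slc17a6a was 0.0767 and 0.077. Depth limits slc17a6a and mnx1 most, whose Wilson 95% intervals reach 17.1% to 28.6% of the value to either side, against 4.83% to 5.76% for chata. Groups of 2 are too small to look for outlying libraries. The replicate difference was not refitted with a library left out, since no residual degree of freedom would remain.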
